A study of Mus musculus with 28 samples.

Results

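The genes described here are 9 genes of myelin lipid metabolism, *Ugt8a*, *Fa2h*, *Gal3st1*, *Cers2*, *Elovl1*, *Elovl7*, *Gltp*, *Aspa* and *Enpp2*. They were chosen by name, for what their products do, with earlier results of these data known, out of 29878 genes listed in the count data. All 9 passed the filter on low values (above 1 CPM, the count scaled to the library's size, in at least 2 libraries), which kept 14979 genes.

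RNA sequencing covered 28 libraries from dissected tissue of 4 brain regions in mice 2 to 3 months old. The mice were wild-type (WT), heterozygous (het) or knockout (KO) for *Hdc*, the gene of histidine decarboxylase, which makes histamine, on a C57Bl/6 background, and no group received a treatment. Each region had 2 KO libraries. WT and het numbered 2 and 3 in dorsal striatum, 3 and 3 in both ventral striatum and hypothalamus, and 1 and 2 in motor cortex. Libraries are named by a digit, read here as the mouse (8 in all), and a letter for the region (b dorsal striatum, a ventral striatum, d motor cortex, f hypothalamus). The knockout is present in all cells from conception, so an adult difference does not show when or in which cells it arose.

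Libraries held between 3536802 and 5150280 counts on genes. *Hdc* itself had 79 to 111 counts in WT and 54 to 66 in KO hypothalamus. In the dorsal striatum it had 0 to 3 counts in WT, 17 to 33 in het and 31 to 40 in KO libraries, so counts were higher in KO there, and likewise in the ventral striatum (0 to 6 in WT, 49 to 51 in KO) and the motor cortex (0 in WT, 29 to 45 in KO). Counts per gene do not show which exons these reads fall on, and genotypes are used as labelled. Markers of spiny projection neurons, the main neurons of the striatum, summed to between 7519 and 10687 CPM in the dorsal striatum and between 174 and 220 CPM in the motor cortex. Markers of cortical excitatory neurons summed to between 2300 and 2484 CPM in the motor cortex and between 92.0 and 456 CPM in the dorsal striatum. Tissue is bulk, so fewer cells of a type and less RNA per cell cannot be told apart in any value below.

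Myelin is the membrane that oligodendrocytes wrap around axons, and it is unusually rich in galactolipids with very long fatty acid chains. Ceramide synthases join a fatty acid to a sphingoid base, elongases lengthen the fatty acid, a hydroxylase modifies it, and a galactosyltransferase adds galactose to give galactosylceramide, part of which is then sulfated to sulfatide. Oligodendrocytes also take up N-acetylaspartate made by neurons, and the acetate released from it can feed lipid synthesis.

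Enzymes of the galactolipid route are encoded by *Cers2* (chr3:95314791-95323599, plus strand of GRCm38), the ceramide synthase for very long chains, *Fa2h* (chr8:111345135-111393824, minus strand), which adds the 2-hydroxyl group to the fatty acid, *Ugt8a* (chr3:125865271-125938619, minus strand), the galactosyltransferase, and *Gal3st1* (chr11:3983636-3999326, plus strand), the sulfotransferase that makes sulfatide. *Elovl1* (chr4:118428093-118432953, plus strand) and *Elovl7* (chr13:108214404-108285683, plus strand) encode fatty acid elongases. *Gltp* (chr5:114669398-114690984, minus strand) encodes a protein that moves glycolipids between membranes, *Aspa* (chr11:73304992-73329596, minus strand) the aspartoacylase that splits N-acetylaspartate, and *Enpp2* (chr15:54838901-54952892, minus strand) autotaxin, a secreted enzyme that makes lysophosphatidic acid and is known in oligodendrocytes and in the choroid plexus, the tissue that makes cerebrospinal fluid. Each is annotated as a protein-coding gene. The strand setting of the read counting is not given in the sources used here, so reads of overlapping genes on the other strand cannot be told apart: *Enpp2* shares 345 bases (5.97% of its exons) with *Gm26684*, *Cers2* shares 75 with *Setdb1* and 144 with *6330562C20Rik*, and *Elovl1* shares 53 with *Cdc20*.

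RefSeq promoter windows (GRCm38.p6) were found for 7 of the 9 genes, 11 windows in all. *Fa2h* and *Enpp2* had none. The 250 bases before the annotated start are printed for 3 of them. Their log2 CPM went together over the 28 libraries. Pearson's r was 0.868 for *Ugt8a* with *Gltp*, 0.826 for *Ugt8a* with *Aspa* and 0.766 for *Aspa* with *Gltp*. The window of *Aspa* differs from those of *Ugt8a* and *Gltp* in its share of G and C (below). It also lies inside the span given above for its gene, before an internal start, while theirs lie at the outer edge of their genes. Capitals mark any motif searched on both strands: the GC box GGGCGG, the E-box CAGCTG, the TATA motif TATAAA and the SOX motifs ACAAAG and ACAATG. Overlapping matches run together.
*Ugt8a*, chr3:125938653-125938902, minus strand: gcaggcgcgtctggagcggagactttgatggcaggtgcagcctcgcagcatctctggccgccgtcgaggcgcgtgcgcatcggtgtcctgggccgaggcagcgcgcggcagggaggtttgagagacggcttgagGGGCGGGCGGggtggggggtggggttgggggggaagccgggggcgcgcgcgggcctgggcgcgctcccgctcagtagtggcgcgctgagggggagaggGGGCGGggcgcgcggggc
*Gltp*, chr5:114690936-114691185, minus strand: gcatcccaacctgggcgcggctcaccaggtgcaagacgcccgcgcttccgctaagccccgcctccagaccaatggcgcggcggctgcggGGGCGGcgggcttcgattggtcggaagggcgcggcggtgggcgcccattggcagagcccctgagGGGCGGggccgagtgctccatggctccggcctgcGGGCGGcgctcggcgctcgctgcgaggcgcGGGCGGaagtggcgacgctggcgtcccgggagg
*Aspa*, chr11:73324638-73324887, minus strand: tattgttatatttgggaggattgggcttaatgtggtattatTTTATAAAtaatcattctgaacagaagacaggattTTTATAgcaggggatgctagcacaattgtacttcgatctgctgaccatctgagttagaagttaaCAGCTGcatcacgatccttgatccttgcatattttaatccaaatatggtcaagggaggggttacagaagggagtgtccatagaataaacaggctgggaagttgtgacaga
The windows of *Ugt8a* and *Gltp* were 76.8% G and C and held 3 and 4 GC boxes. That of *Aspa* was 38.8% G and C, against a median of 52.4% over all 32851 windows, and held 3 TATA matches and 1 E-box. The GC box was in 6 of the 11 member windows (*Cers2*, *Elovl1*, *Elovl7*, *Gltp*, *Ugt8a*) and in 32.7% of all windows. CAGCTG was in 2 (*Aspa*, *Cers2*, 13.0% of all windows), ACAATG in 2 (10.7%), TATAAA in 1 (*Aspa*, 12.4%) and ACAAAG in 0 (16.5%). The 2 windows with ACAATG are overlapping windows of *Gal3st1* that hold the same site. These are matches of letters in a window and not binding sites.

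All 9 genes were detected in every library. Counts were lowest for *Gal3st1*, with 22 to 67 reads a library, and *Aspa*, with 24 to 109, which limits their precision most, and highest for *Enpp2*, with 394 to 3775. Levels can be compared between genes only per length, here as CPM per kilobase of annotated exon, mean ± SD over the 28 libraries. *Enpp2* (35.7 ± 27.2) and *Gltp* (35.1 ± 8.29) stood above the others, and the SD of *Enpp2* came mainly from KO dorsal striatum library 8b. The galactolipid enzymes followed with *Fa2h* at 12.4 ± 3.66, *Ugt8a* at 8.95 ± 2.61 and *Cers2* at 8.31 ± 2.25. *Elovl1* was at 6.59 ± 1.34, *Elovl7* at 5.35 ± 1.81, *Gal3st1* at 3.91 ± 0.949 and *Aspa* at 1.96 ± 0.667. From *Fa2h* down to *Gal3st1*, neighbours in this order differed by less than the larger of their SDs, while the steps from *Gltp* to *Fa2h* and from *Gal3st1* to *Aspa* were larger than both.

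Region set the level of most of these genes. The motor cortex had the lowest mean of 8 of the 9, and *Enpp2* was the exception. Values here are CPM over all genotypes of a region, mean ± SD, with n = 7 dorsal striatum, 8 ventral striatum, 5 motor cortex and 8 hypothalamus libraries. *Fa2h* was at 41.4 ± 8.36 in dorsal striatum, 42.2 ± 5.60 in ventral striatum, 40.8 ± 7.04 in hypothalamus and 18.5 ± 5.43 in motor cortex. All motor cortex libraries (11.0 to 23.9) lay below all others, whose lowest was 26.5. *Gltp* likewise was at 67.9 ± 10.1, 71.7 ± 7.99, 61.9 ± 10.02 and 38.1 ± 5.94 in the same order, and its motor cortex libraries (31.1 to 45.4) did not overlap the rest. For how many of all genes the motor cortex libraries separate in this way was not computed. *Cers2* separated the dorsal striatum from the other 2 regions above motor cortex: it had 27.3 ± 3.60 in dorsal striatum against 35.2 ± 6.69 in ventral striatum and 36.6 ± 3.33 in hypothalamus, with 17.9 ± 2.90 in motor cortex. *Ugt8a* was at 44.7 ± 11.7, 44.3 ± 6.88 and 44.1 ± 9.07 in dorsal striatum, ventral striatum and hypothalamus, a difference within the spread, and at 23.3 ± 7.62 in motor cortex. *Aspa*, *Elovl1* and *Elovl7* had motor cortex means of 6.90 ± 1.80, 12.4 ± 2.07 and 15.6 ± 3.70 against 11.6 to 13.6, 18.1 to 20.1 and 21.4 to 25.8 elsewhere. *Gal3st1* had a narrow range, from 6.50 ± 0.768 in motor cortex to 9.21 ± 1.84 in ventral striatum.

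**Figure D1:**
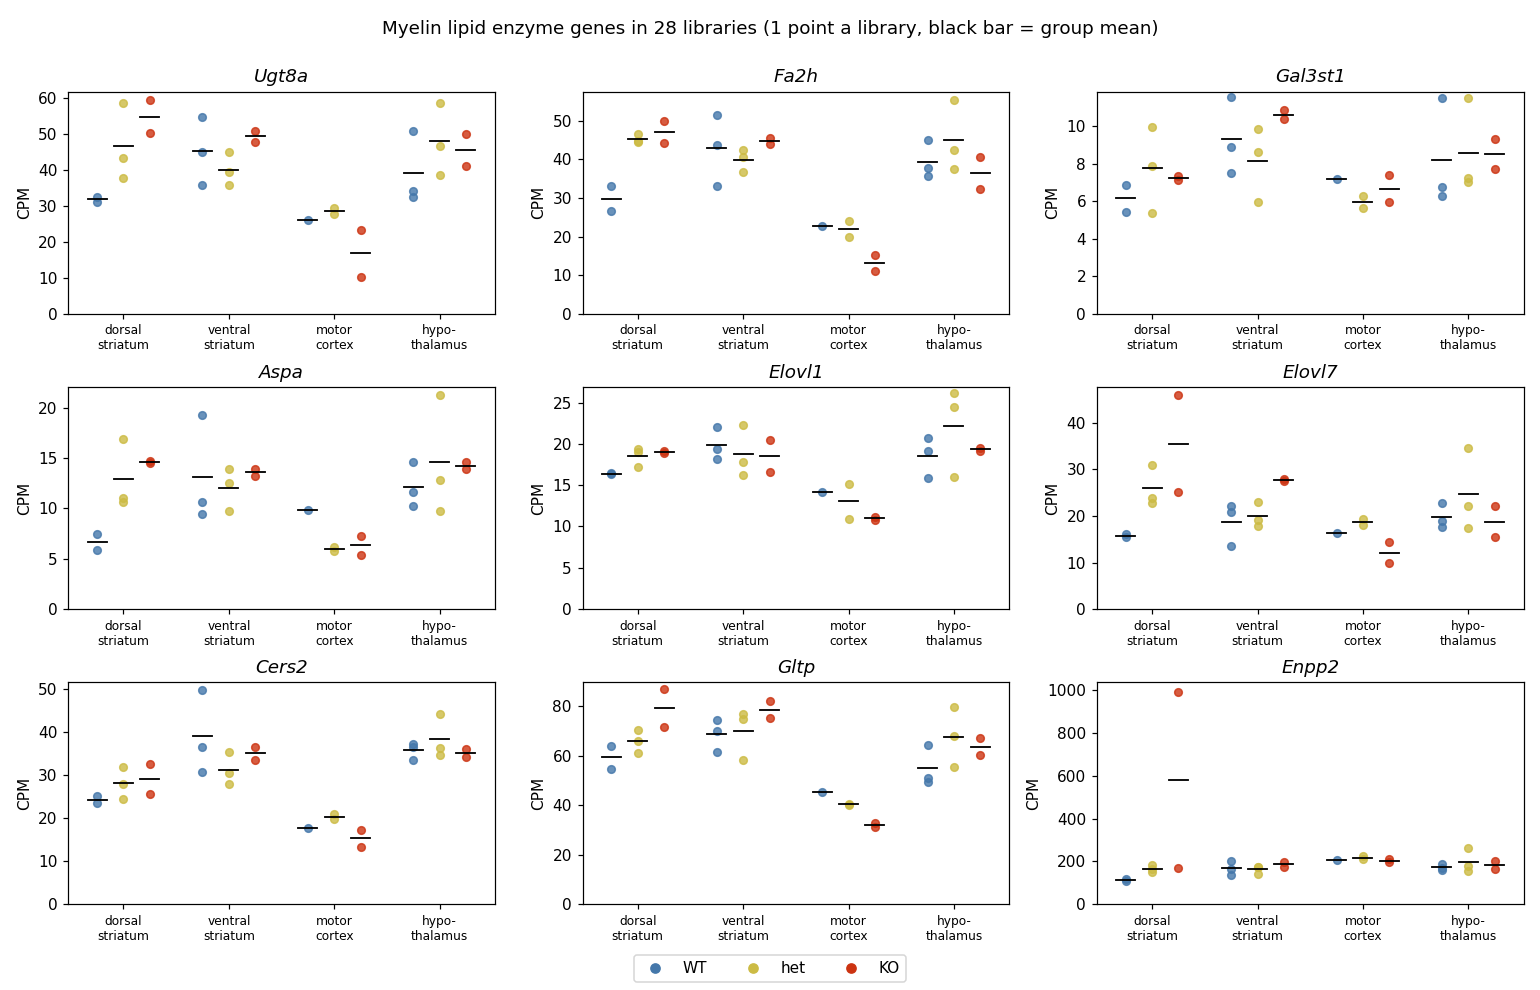
CPM (linear axes from 0) of the 9 genes by region, with 1 point a library coloured by genotype and a black bar at each group mean. Motor cortex libraries sit lowest for most genes, and *Enpp2* is set by 1 KO dorsal striatum library at 991 CPM.

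These differences were tested by edgeR's likelihood ratio test with Benjamini-Hochberg adjustment over all 14979 genes, on the mean of the 3 genotypes in each region. Dorsal striatum was higher than motor cortex for 7 of 9 members, all but *Gal3st1* and *Enpp2*, where 43.4% of all genes were called in either direction. Among members *Fa2h* had the largest log2 difference there, 1.09 (SE 0.13, adjusted p = 2.03e-15), and *Elovl1* the smallest of those called, 0.50 (SE 0.15, adjusted p = 0.00183). Ventral striatum was higher than motor cortex for 8 of 9, all but *Enpp2* (43.7% of all genes called), with *Fa2h* at 1.19, *Cers2* at 0.98, *Ugt8a* at 0.95 and *Gltp* at 0.89. Motor cortex was lower than hypothalamus for 7 of 9, all but *Gal3st1* and *Enpp2* (48.2% of all genes called), with *Fa2h* again first at -1.11. Few members separated the other regions. *Cers2* was lower in dorsal than in ventral striatum (-0.37, SE 0.10, adjusted p = 0.00194), the only call of 9 where 29.0% of all genes were called. It was also the only call between dorsal striatum and hypothalamus (-0.43, SE 0.10, adjusted p = 7.88e-05; 56.1% of all genes called). *Gltp* was higher in ventral striatum than in hypothalamus (0.22, SE 0.09, adjusted p = 0.0265), the only call of 9 there (43.6% of all genes called). Libraries of different regions can come from the same mouse, which this fit does not use.

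The 10 structural myelin genes, which encode proteins of the sheath (among them *Mbp*, *Mog*, *Mag*, *Mobp* and *Cnp*), had the same low level in motor cortex: 10 of 10 were called lower there than in dorsal striatum, with a median log2 difference of 0.87 (dorsal striatum over motor cortex) against 0.61 for the 9 members and 0.03 for all genes. Against the mean log2 CPM of these 10 genes in the same library, *Fa2h* was nearly constant: it lay -2.01 ± 0.12 (log2, SD) from it in dorsal striatum, -2.07 ± 0.09 in ventral striatum, -2.23 ± 0.23 in motor cortex and -1.97 ± 0.15 in hypothalamus. *Gltp* (-1.38 to -1.17) and *Ugt8a* (-2.01 to -1.87) kept a like distance in the 4 region means. *Gal3st1* did not: it was -3.63 ± 0.36 in motor cortex against -4.46 to -4.20 in the other regions. The mean of the 10 genes is itself lower in motor cortex, so a gene level across regions would also stand higher there on this scale.

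*Enpp2* differed most from the sheath genes. It stood 1.29 ± 0.28 above their mean in motor cortex, -0.07 ± 0.12 from it in ventral striatum and 0.20 ± 0.16 in hypothalamus. All 5 motor cortex libraries (0.97 to 1.68) lay above every library of the other regions except 8b, at 2.20. The sheath mean is lower in motor cortex, which raises any gene that does not fall with it. The share of all genes separated in this way was not computed. In the 6 dorsal striatum libraries other than 8b, *Enpp2* lay within -0.18 and 0.09 of the sheath mean. In CPM, *Enpp2* had 210 ± 10.3 in motor cortex (n = 5), 186 ± 35.2 in hypothalamus, 171 ± 23.4 in ventral striatum (n = 8 each) and 149 ± 30.3 in dorsal striatum without 8b (n = 6). Motor cortex was thus highest for *Enpp2* and lowest for the others. With 8b the dorsal striatum mean was 269 ± 319 CPM and no regional difference of *Enpp2* was called. Without 8b it was lower in dorsal striatum than in motor cortex (log2 -0.52, SE 0.13, edgeR likelihood ratio test adjusted p = 0.000202) and than in hypothalamus (-0.34, SE 0.11, adjusted p = 0.00649). The difference from ventral striatum was -0.23 (SE 0.11, adjusted p = 0.112).

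**Figure D2:**
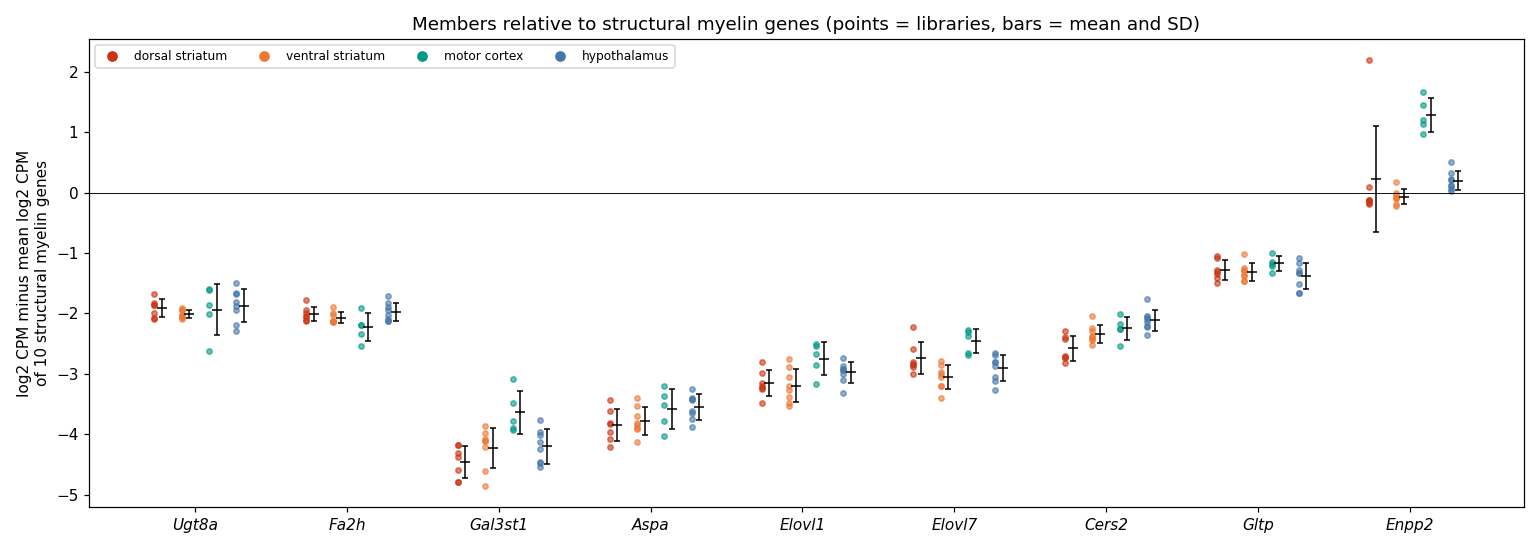
Log2 CPM of each gene minus the mean log2 CPM of 10 structural myelin genes in the same library, with 1 point a library coloured by region and bars for the mean and SD. *Enpp2* lies between 0.97 and 1.68 in motor cortex, where the sheath mean itself is lower, while *Fa2h* and *Gltp* stay near a constant distance.

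KO and WT were then compared within each region, which asks how loss of *Hdc* goes with these genes. In the dorsal striatum every KO library lay above every WT library for 9 of 9 members, where this held for 18.8% of all genes, and the median log2 fold change was 0.67 against -0.003 over all genes. Set against the het libraries as well, only *Gltp* had all KO libraries higher (71.8 and 86.9 CPM in KO, at most 70.3 in het). The share of all genes for that was not computed. For 2 of 9 the difference passed the test (0.387% of all genes were called), *Enpp2* and *Elovl7*, and for both the call rested on library 8b.

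*Enpp2* read 118 and 107 CPM in WT libraries 1b and 2b, 166, 149 and 184 CPM in the het libraries, and 168 and 991 CPM in KO libraries 7b and 8b. KO library 7b lay among the het libraries and 8b far above all 27 others in the series. The log2 fold change, KO over WT, was 2.36 (SE 0.38, edgeR likelihood ratio test adjusted p = 7.68e-06). Without 8b it was 0.57 (SE 0.24, adjusted p = 0.707).

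*Elovl7* read 16.2 and 15.4 CPM in WT, 31.0, 22.8 and 24.0 CPM in het, and 25.1 and 45.9 CPM in KO. Groups of WT and KO did not overlap, and KO library 7b again lay within the het values. The log2 fold change was 1.16 (SE 0.29, edgeR likelihood ratio test adjusted p = 0.0318), and without 8b it was 0.67 (SE 0.33, adjusted p = 0.88). *Elovl7* also lost the call when either WT library was left out.

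Markers of the choroid plexus were also far higher in library 8b, on which both calls rested. Summed over 12 markers they read 2977 CPM in 8b, 10.8 CPM in 7b, 4.80 and 16.1 CPM in WT, and between 17.1 and 76.3 CPM in the het libraries. *Ttr*, the transthyretin gene that defines this tissue, had 10311 counts in 8b, 5 in 7b, and 0 and 14 in WT. Of the 12, 9 passed the filter and 8 were called higher in KO (median log2 fold change 5.76), and 7 and 6 of the 12 had no counts in the WT libraries. With the mean level of these markers as a covariate, *Enpp2* differed by 0.65 (adjusted p = 0.851) and *Elovl7* by 0.75 (adjusted p = 0.798), and 0 of 9 members were called. This covariate was 5.485 in 8b and at most 2.55 in any other library, so it largely marks 8b. Its effect cannot be told apart from that of leaving out 8b. A ventral striatum het library, 6a, had the next highest sum, 104 CPM, with 176 CPM of *Enpp2*. Markers of cortical excitatory neurons were high in the other KO library, with 456 CPM in 7b against 105 in 8b and 112 and 196 in WT, and their part in the members' differences was not tested. Markers of spiny projection neurons went the other way: 10 of 10 had a log2 fold change below 0 (-0.59 to -0.08) and 0 were called. Over all genes 49.3% lay above 0. The mean log2 CPM of these markers was 8.76 and 8.57 in KO 7b and 8b and 9.06 and 8.88 in WT, without overlap. Among single genes, every KO library lay below every WT library for 18.2%. The markers' summed CPM did overlap (8802 and 7662 in KO, 10687 and 8590 in WT). The part of these markers in the members' differences was not tested either.

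**Figure D3:**
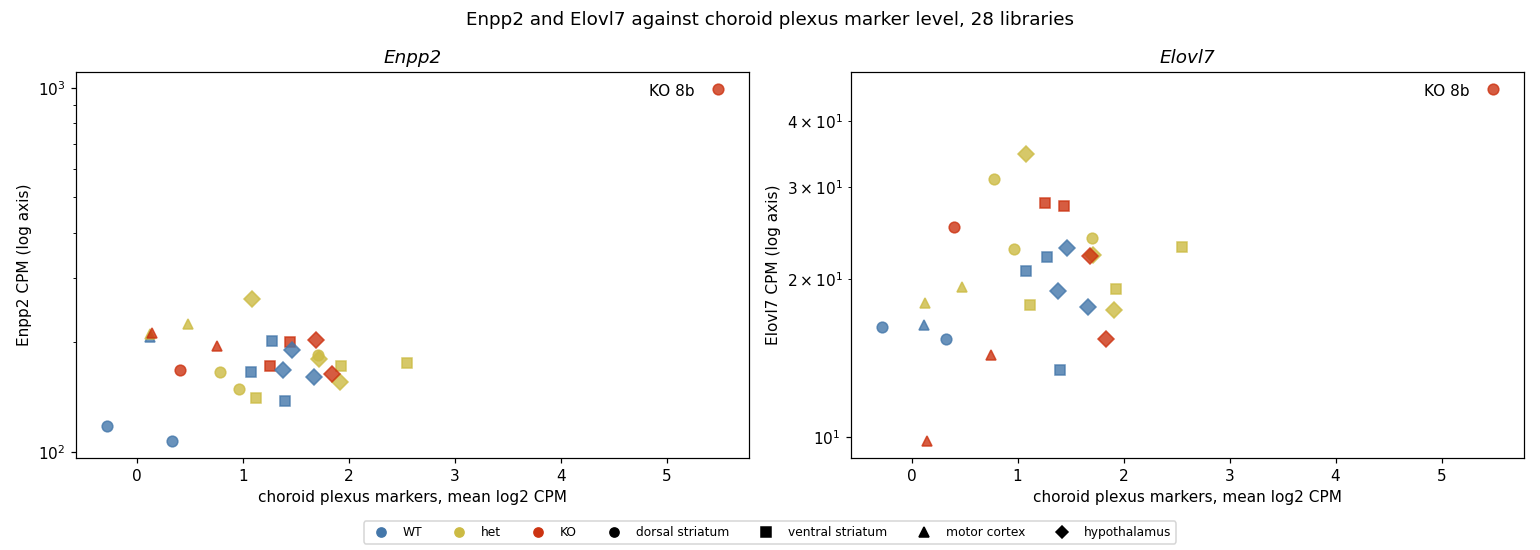
CPM of *Enpp2* and *Elovl7* (log axes) against the mean log2 CPM of the choroid plexus markers in the 28 libraries, with genotype by colour and region by symbol. KO library 8b is alone at the upper right in both panels.

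The other 7 members did not pass the test, and their values were as follows. *Aspa* read 7.50 and 5.89 CPM in WT, 16.9, 11.0 and 10.6 in het, and 14.5 and 14.7 in KO. The KO and het libraries lay above both WT libraries, and the log2 fold change, KO over WT, was 1.13 (SE 0.35, edgeR likelihood ratio test adjusted p = 0.137). It was 1.13 as well without 8b, so that library does not set its size. *Fa2h* read 33.0 and 26.5 CPM in WT, 44.6, 46.6 and 44.7 in het, and 44.2 and 49.9 in KO. Het and KO libraries overlapped and WT lay below both, with a log2 fold change of 0.67 (SE 0.20, adjusted p = 0.12 by the same edgeR test). *Ugt8a* read 31.2 and 32.4 CPM in WT, 58.7, 37.8 and 43.3 in het, and 50.2 and 59.3 in KO, the same arrangement, with a log2 fold change of 0.78 (SE 0.26, adjusted p = 0.197 by the same edgeR test).

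For the remaining 4 the groups were closer. *Gltp* read 64.2 and 54.9 CPM in WT against 71.8 and 86.9 in KO, a log2 fold change of 0.42 (SE 0.17). *Cers2* read 25.2 and 23.6 CPM in WT against 25.6 and 32.5 in KO, a log2 fold change of 0.25 (SE 0.21). *Gal3st1*, at 6.90 and 5.44 CPM in WT and 7.14 and 7.35 in KO, differed by 0.24 (SE 0.36), and *Elovl1*, at 16.5 and 16.3 in WT and 19.1 and 18.9 in KO, by 0.21 (SE 0.23). Adjusted p-values of these 4 lay between 0.461 and 0.92 in the edgeR likelihood ratio test.

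**Figure D4:**
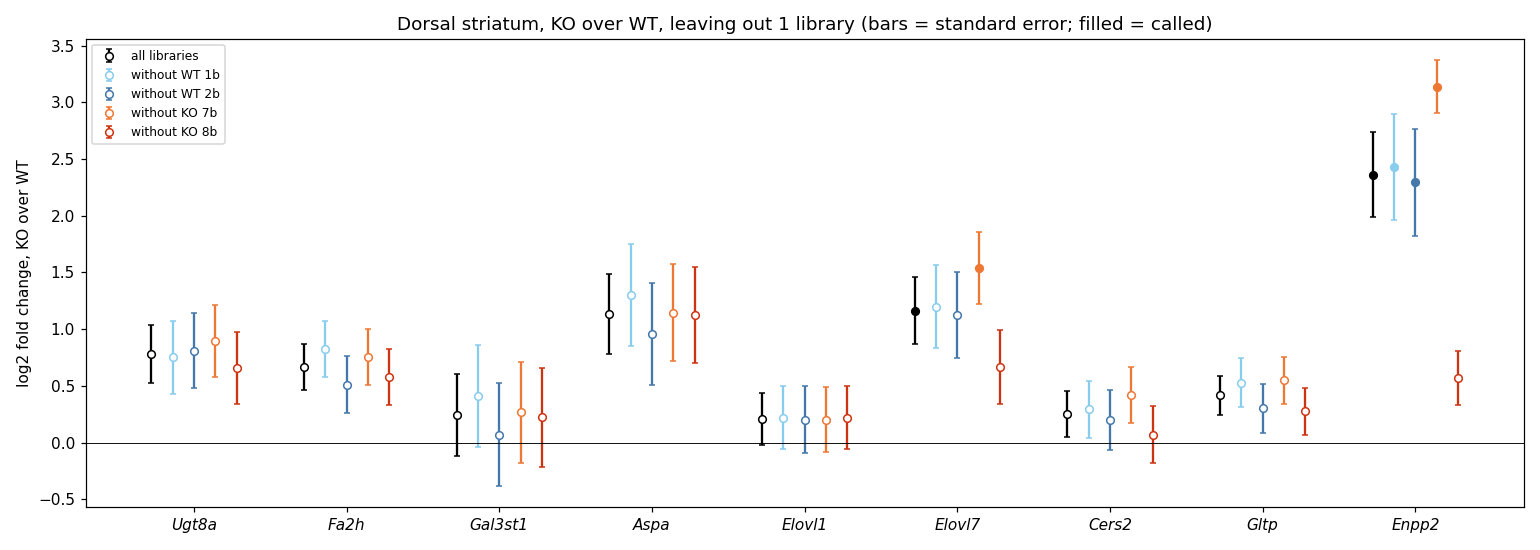
Log2 fold change, KO over WT, of each gene in the dorsal striatum with all libraries and with each WT or KO library left out, with standard errors as bars and filled points for calls. Without 8b *Enpp2* drops from 2.36 to 0.57, while *Aspa* stays at 1.13.

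The structural myelin genes differed in the same comparison. Their summed level was 3020 and 3520 CPM in WT, 4327 to 4565 CPM in het and 4531 and 5775 CPM in KO, the last in 8b. Of the 10, 3 were called higher in KO (*Mobp* 0.76, *Cnp* 0.72 and *Cldn11* 0.73, log2), where 0.387% of all genes were called. Their adjusted p was 0.0187, 0.0337 and 0.04996 in the edgeR likelihood ratio test, the last just under the threshold. The median was 0.72 over the 10. No values without 8b are given for these genes. Against the mean of these genes in the same library, *Aspa* was at -3.73 (log2, mean of 2) in KO and -4.14 in WT, and *Elovl7* at -2.54 in KO and -2.95 in WT. Both lay higher in each KO than in each WT library, which held for 1.42% of all genes. For *Elovl7* the gap was narrow: KO 7b lay at -2.848 against -2.885 in WT 2b, while KO 8b lay at -2.223. *Gltp* (-1.33 in KO, -1.07 in WT), *Cers2* (-2.77 and -2.33), *Gal3st1* (-4.70 and -4.25) and *Elovl1* (-3.36 and -2.89) lay lower in each KO than in each WT library, which held for 74.5% of all genes and so is not particular to these 4. *Ugt8a* (-1.86 and -1.96), *Fa2h* (-2.07 and -2.06) and *Enpp2* (1.03 and -0.15) overlapped, the last with -0.13 in KO 7b and 2.20 in KO 8b. With 2 libraries against 2 no exact permutation test of such values can pass the threshold, and none was run.

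Het and KO libraries were each compared with the same WT libraries. In the dorsal striatum every het library lay above every WT library for 6 of 9 members (*Ugt8a*, *Fa2h*, *Aspa*, *Elovl1*, *Elovl7* and *Enpp2*), where this held for 11.3% of all genes. The median log2 fold change, het over WT, was 0.55, with *Aspa* at 0.97 (SE 0.33), *Elovl7* at 0.72 (SE 0.27), *Fa2h* at 0.62 (SE 0.19), *Enpp2* at 0.56 (SE 0.34) and *Ugt8a* at 0.55 (SE 0.24). The edgeR likelihood ratio test called 0 of 9 (0.0868% of all genes), and 4 of 9 had an unadjusted p under 0.05 (7.95% of all genes). KO over het called 1 of 9 (0.461% of all genes), *Enpp2* at 1.80 (SE 0.34, adjusted p = 0.0004 by the same test), which was 0.01 (adjusted p = 1) without 8b. The other members differed by between -0.11 and 0.44 between KO and het there.

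Outside the dorsal striatum, no member was called between genotypes by the edgeR likelihood ratio test. In the ventral striatum KO over WT called 0 of 9 (0.0801% of all genes), with a median of 0.13. An unadjusted p under 0.05 was seen for 1 of 9 and for 5.4% of all genes. Every KO library lay above every WT library for 2 of 9 members (*Elovl7* and *Gltp*), where this held for 8.51% of all genes. *Elovl7* read 20.8, 13.5 and 22.1 CPM in WT and 27.9 and 27.6 in KO. Its KO libraries lay above all WT and het libraries of that region, which held for 1 of 9 members and 2.65% of all genes, and its log2 fold change was 0.56 (SE 0.26, adjusted p = 0.878). Het over WT (0.0534%) and KO over het (0.0467%) called 0 of 9 there. Under an unadjusted p of 0.05 were 1 and 0 members, against 4.5% and 3.44% of all genes. In the hypothalamus KO over WT (0.167%), het over WT (0.0935%) and KO over het (0.234%) each called 0 of 9, with medians of 0.06, 0.26 and -0.12. Members under that p numbered 0, 1 and 0, against 6.01%, 5.62% and 5.55% of all genes. Every hypothalamic KO library lay above every WT library for 0 of 9 members and 11.3% of all genes. Het library 6f held the highest hypothalamic value of *Ugt8a*, *Fa2h*, *Aspa*, *Elovl1*, *Elovl7*, *Cers2*, *Gltp* and *Enpp2*, the last at 263 CPM.

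In the motor cortex the sign was the other way, with 1 WT library and so no replicate check on that side. KO over WT called 0 of 9 (0.0334% of all genes), with 2 members under an unadjusted p of 0.05 (4.33% of all genes). Of the members 0 of 9 lay above 0, against 50.2% of all genes (median -0.44 against 0.001 over all genes). *Fa2h* read 22.8 CPM in WT, 19.8 and 23.9 in het, and 11.0 and 15.1 in KO, a log2 fold change of -0.82 (SE 0.28, adjusted p = 0.772). *Gltp* read 45.4 in WT, 40.3 and 40.6 in het, and 32.9 and 31.1 in KO (-0.50, SE 0.23, adjusted p = 1). The KO libraries lay below all het and WT libraries for 5 of 9 members (*Ugt8a*, *Fa2h*, *Elovl7*, *Cers2* and *Gltp*), where this held for 10.7% of all genes. *Enpp2* had a log2 fold change of -0.02 (SE 0.46). The 10 structural myelin genes had a median of -0.61 in this comparison, and 0 of them were called. Het over WT (0.0134%) and KO over het (0.00668%) called 0 of 9 in the motor cortex. Under an unadjusted p of 0.05 were 0 and 3 members, against 3.71% and 4.17% of all genes.

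**Figure D5:**
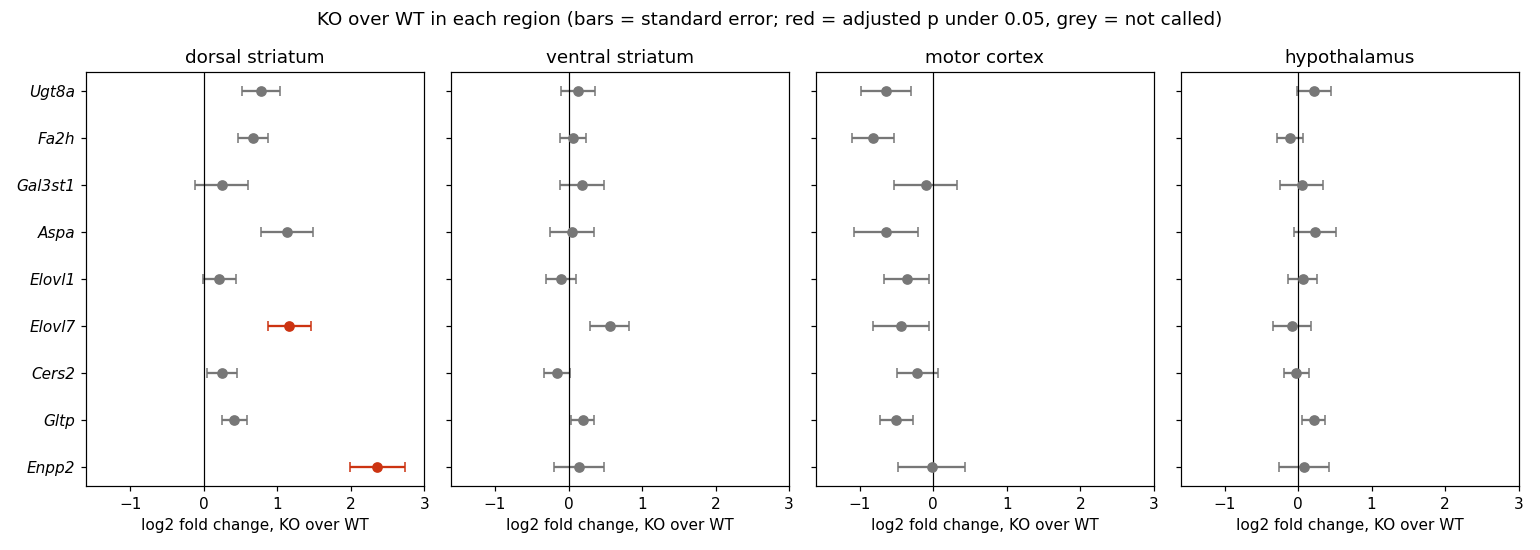
Log2 fold change, KO over WT, of the 9 genes in each region, with standard errors as bars, red for adjusted p under 0.05 and grey for not called. All 9 lie above 0 in the dorsal striatum and 0 of 9 in the motor cortex, where WT is 1 library.

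Whether the KO-over-WT difference itself depended on region was tested as an interaction in the same fit. Against the ventral striatum 0 of 9 members were called (0.00668% of all genes), with 3 under an unadjusted p of 0.05 (4.35% of all genes). Against the motor cortex 2 of 9 were called (0.127% of all genes): *Fa2h* with a difference of 1.49 log2 units (SE 0.35, edgeR likelihood ratio test adjusted p = 0.0294) and *Enpp2* with 2.39 (SE 0.59, adjusted p = 0.0409). Against the hypothalamus 1 of 9 was called (0.154% of all genes), *Enpp2* with 2.28 (SE 0.51, adjusted p = 0.0175). Without 8b the difference of *Fa2h* was 1.40 (SE 0.38, adjusted p = 0.113), and those of *Enpp2* were 0.60 (adjusted p = 1) and 0.49 (adjusted p = 1), so the size of the first moved little without 8b and the other two lost most of theirs. The quasi-likelihood test of edgeR and DESeq2 called 0 of 9 against motor cortex and 0 of 9 against hypothalamus, and with the mouse number as a replicate block 1 and 0 of 9 were called.

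Other genes of the same pathways, from lists chosen for function, gave no calls between dorsal striatum of KO and WT mice. Only 0.387% of all genes were called there, so lists of this size could hold no call without differing from all genes. In sphingolipid synthesis 0 of 17 tested genes (20 listed) were called, with a median log2 fold change of 0.03. The smallest p-values belonged to *Sgms2*, a sphingomyelin synthase, at 1.25 (SE 0.41, adjusted p = 0.173 in the edgeR test) and *Sptssb*, a subunit of serine palmitoyltransferase, at -1.76 (SE 1.19). In sphingolipid breakdown and transfer 0 of 16 were called (median 0.07), led by the ceramidase genes *Acer2* at 0.92 (SE 0.41) and *Acer3* at -0.46 (SE 0.27). In fatty acid synthesis, elongation and desaturation 0 of 26 tested genes (27 listed) were called (median 0.08), led by the desaturase gene *Scd1* at 0.52 (SE 0.20) and *Hacd2*, a dehydratase of the elongation cycle, at -0.55 (SE 0.22). Among partners of N-acetylaspartate and lysophospholipid metabolism 0 of 11 tested genes (13 listed) were called, with a median of 0.63. Of these, 9 of 11 lay above 0 (49.3% of all genes) and 5 had an unadjusted p under 0.05 (7.94% of all genes). No values without 8b are given for this list. *Enpp6*, a choline phosphodiesterase of oligodendrocytes, was at 0.89 (SE 0.33) and *Lpar1*, a receptor of lysophosphatidic acid, at 0.63 (SE 0.23). In the other regions these 4 lists gave 1 call between KO and WT, *Sphk1*, a sphingosine kinase, higher in KO hypothalamus at 2.51 (SE 0.66, adjusted p = 0.0242 in the edgeR test). In that comparison 0.167% of all genes were called.

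Over the 28 libraries, which share region as their main source of spread, the log2 CPM of most members went with the mean of the structural myelin genes. Pearson's r was 0.958 for *Fa2h*, 0.928 for *Gltp*, 0.892 for *Ugt8a*, 0.846 for *Cers2*, 0.84 for *Aspa*, 0.803 for *Elovl1*, 0.78 for *Elovl7*, 0.509 for *Gal3st1* and 0.176 for *Enpp2*. Within groups of genotype and region, after the group means were taken out, the values were 0.73 for *Fa2h*, 0.729 for *Gltp*, 0.588 for *Ugt8a*, 0.703 for *Cers2*, 0.787 for *Aspa* and 0.815 for *Elovl7*, and lower for *Elovl1* (0.368), *Gal3st1* (0.344) and *Enpp2* (0.51). Among the members the closest pairs were *Ugt8a* with *Fa2h* and *Fa2h* with *Gltp* (0.893 each).

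Outside the set, genes much like *Fa2h* were *Myrf* (r = 0.949), a transcription factor of oligodendrocytes, and *Mbp* (0.948). *Gltp* was nearest to *Mal* (0.948) and near to *Cldn11* (0.93), *Ugt8a* to *Gjc3* (0.926), a connexin gene, and *Tmem63a*, and *Aspa* to *Pllp* (0.894), *Plxnb3* and *Plekhh1*. *Cers2* was nearest to *Il33* (0.928), *Gpr37* and *Olig1*, *Elovl7* to *Bcas1* (0.854), *Tmem88b* and *Cd9*, and *Elovl1* to *Apod* (0.844), *Srebf1*, a regulator of lipid synthesis, and *Car2*. *Gal3st1*, the member with the lowest CPM, had *Eif3h* (0.74), *Phlpp1* and *St3gal4*. *Enpp2* was nearest to the choroid plexus gene *Folr1* (0.834), *Mfrp* and *Slc16a1*, and without 8b to *Lifr* (0.818), *Hs3st1* and *Nectin4*, with none of the first 3 among these.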

How the data were processed

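The authors trimmed single-end reads, discarded ribosomal reads, aligned the rest to GRCm38 (Ensembl annotation 75) with STAR 2.3.1z8 and counted them with HTSeq 0.6.1p1. They deposited raw counts per gene and library, not normalized. Versions are from the submitters' processing notes. Between 44.78% and 54.22% of tallied reads were on genes, and 5 tally rows per file were left out. Groups came from the labels, and the mouse from the digit of the library name. Symbols and exon lengths came from GENCODE M21 (28758 of 29878 genes matched).

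Genes above 1 CPM in at least 2 libraries were fitted over 12 groups with edgeR 4.0.16 in R 4.3.3 (TMM, glmFit, glmLRT, the test in the study's methods), and called at an adjusted p under 0.05 over 14979 genes. Standard errors come from that fit. CPM uses TMM-scaled library sizes, and log2 CPM adds a prior count of 2. Members were given in every comparison. List genes were named if called in KO against WT dorsal striatum, or else the 2 with the smallest p, and neighbours were the 3 genes with the highest Pearson r, some of which are not reported here. Other names were chosen after their values were seen (*Hdc*, *Sphk1*, the marker *Ttr*, *Fa2h* and *Gltp* in motor cortex). Members and lists were chosen with earlier results of these data known.

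Alternatives were RLE scaling, library size alone, no filter, edgeR's quasi-likelihood test, DESeq2 1.42.0, a choroid plexus covariate, each region alone, a mouse block and leaving out each library. On counts simulated for KO against WT in the dorsal striatum, 147 of 200 changed genes among 14780 were recovered, and 21 of 168 calls were false. No pair of libraries in a group looked like 1 library deposited again (chi-square per degree of freedom at least 1.86). The labels do not say that libraries of a group are separate mice. Reads carry no molecular identifiers.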

Additional observations from a re-analysis of the deposited data

Results flagged for a closer look

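The KO-over-WT difference of *Fa2h* was larger in dorsal striatum than in motor cortex by 1.49 log2 units, and that of *Enpp2* was larger in dorsal striatum than in motor cortex by 2.39 and than in hypothalamus by 2.28. Each was picked out because the interaction term of the fit passed the threshold. All 3 calls were lost without KO library 8b, and the motor cortex side rests on 1 WT library.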

How the results depend on the processing

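Of 189 member differences tested, 31 were called, and 0 of these changed sign under any alternative, while 11 lost the call under at least 1. Of the 158 not called, 60 changed sign under some alternative, the largest by size having been 0.44 (log2), and 28 passed. Leaving out 1 library at a time, members called in KO over WT dorsal striatum ranged from 0 (without 8b) to 2, with 1, *Enpp2*, without either WT library. The same ranges were 0 to 1 for KO over het in dorsal striatum and in motor cortex, 1 to 2 for dorsal against ventral striatum, 1 to 3 for dorsal striatum against hypothalamus, 0 to 1 for ventral striatum against hypothalamus, and 0 to 1, 0 to 3 and 0 to 2 for the interactions of dorsal striatum with ventral striatum, motor cortex and hypothalamus. With library size alone, which moved the median of all genes to 0.28 in KO over WT dorsal striatum (member median 0.96) and to -0.41 in dorsal striatum against hypothalamus (member median -0.38), members called of 9, with the share of all genes called, were 6 (3.33%) in that comparison, 1 (0.374%) for het over WT in dorsal striatum, 3 (33.8%) for dorsal against ventral striatum, 7 (67.2%) for dorsal striatum against hypothalamus, 2 (52.2%) for ventral striatum against hypothalamus, and 1 (0.0334%), 5 (0.381%) and 3 (0.928%) for the 3 interactions in the order above. In KO over WT dorsal striatum library size alone called 499 of all genes, the quasi-likelihood test 12 (1 member), DESeq2 23 (1 member), and the choroid plexus covariate 15 (0 members) against 58 with all libraries. The covariate also left 0 members for KO over het in dorsal striatum. The interactions with motor cortex and hypothalamus had 0 members by the quasi-likelihood test, DESeq2 or the covariate. With the mouse number as replicate block they had 1 and 0, and the block changed no other count of the region comparisons or interactions. Genotype comparisons within a region could not be blocked, since each mouse has 1 genotype. Same-numbered libraries had a mean correlation of deviations of 0.007 over 34 pairs, and others -0.004 over 56, so the data give no sign of pairing. Without the filter the interaction with ventral striatum had 1 call, and with the region's own libraries KO over het in motor cortex had 1. *Enpp2* in dorsal striatum against motor cortex was -0.047 with library size alone, -0.53 with the covariate, -0.008 with the replicate block and between -0.52 and 0.34 leaving out 1 library, and against hypothalamus it was -0.10 with library size alone and between -0.34 and 0.52 leaving out 1, and against ventral striatum between -0.23 and 0.62 leaving out 1. The cause of these shifts was not tested. Reads per library of *Gal3st1* and *Aspa* (22 to 109) limit what can be seen in them.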
